A study of Mus musculus with 2 samples.

Results

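The CD3 chains and the proteins that carry a signal from the T cell antigen receptor into the cell were followed through 40 genes. They were chosen by name from knowledge of the pathway, with earlier results of these data known. All 40 were found among the 27179 gene rows of the deposited tables. The genes were read in group 2 innate lymphoid cells at the progenitor stage (ILC2p), sorted by flow cytometry from the bone marrow of wild-type C57BL/6 mice 8 weeks of age. The series holds 2 libraries of this 1 group, each from 100 ng of RNA of a pool of 8 mice, with no treatment or further genotype named, so the data allow a description of levels and of the difference between the pools. The pools are numbered by their order in the series alone. The heading above the values names the opposite library in each table, and 0 of 2 headings fit their sample. Tables were taken as the samples they belong to in the deposit. Should the headings be the correct record, the numbers of the pools swap in every difference given here.

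In T cells the antigen receptor has no signalling part of its own. It is carried to the surface by the CD3 gamma, delta and epsilon chains and the zeta chain, whose tyrosine motifs are phosphorylated by Lck and then bound by Zap70, which phosphorylates the scaffolds LAT and SLP-76 and so brings phospholipase C gamma, exchange factors for small GTPases and protein kinase C theta to the membrane. Phosphatases, the kinase Csk, ubiquitin ligases and diacylglycerol kinases restrain each step. ILC2 are lymphocytes that carry no antigen receptor at the surface and respond to cytokines, while sharing much of their gene expression with T cells.

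Of the 40 genes, 39 were detected, which here means at least 1 RPKM (reads scaled by gene length and by library depth) in both pools, against 40.5% of all gene rows. At 10 RPKM or more in both pools were 34 (23.7% of all rows), and at 100 RPKM or more were 8 (2.69%). The median over the 40 genes was 45.0 RPKM in pool 1 and 48.0 in pool 2, beside 14.2 and 14.9 over the 11013 detected genes of the whole tables. Library totals of 20216146 and 19834586 reads were recovered from the steps between the deposited values, so that for a length of 1 kb, 3 reads make 0.148 RPKM in pool 1 and 0.151 in pool 2. Read numbers of single genes given here are lower bounds, and their intervals cover counting error only. In RNA of many cells, fewer cells of a kind and less RNA per cell cannot be told apart.

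By mean level over the pools, Trbc2 came first at 432 ± 7.55 RPKM (SD, n = 2 pools). Csk at 235 ± 9.15, Lat at 230 ± 12.3 and Skap1 at 215 ± 10.6 followed, and neighbours among these 3 had overlapping ranges. A gap separated Skap1 from Trbc1 at 166 ± 23.5, Cd3g at 149.9 ± 64.3, Ptprc at 140.4 ± 10.9 and Lcp2 at 137 ± 7.17, whose ranges overlapped from each to the next. The lowest were Sos1 at 3.95 ± 0.188, Cd8b1 at 1.84 ± 0.823 and Cd8a at 0. Between these extremes the levels formed a nearly continuous series, in which most neighbours did not differ beyond the spread of the pools.

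**Figure D1:**
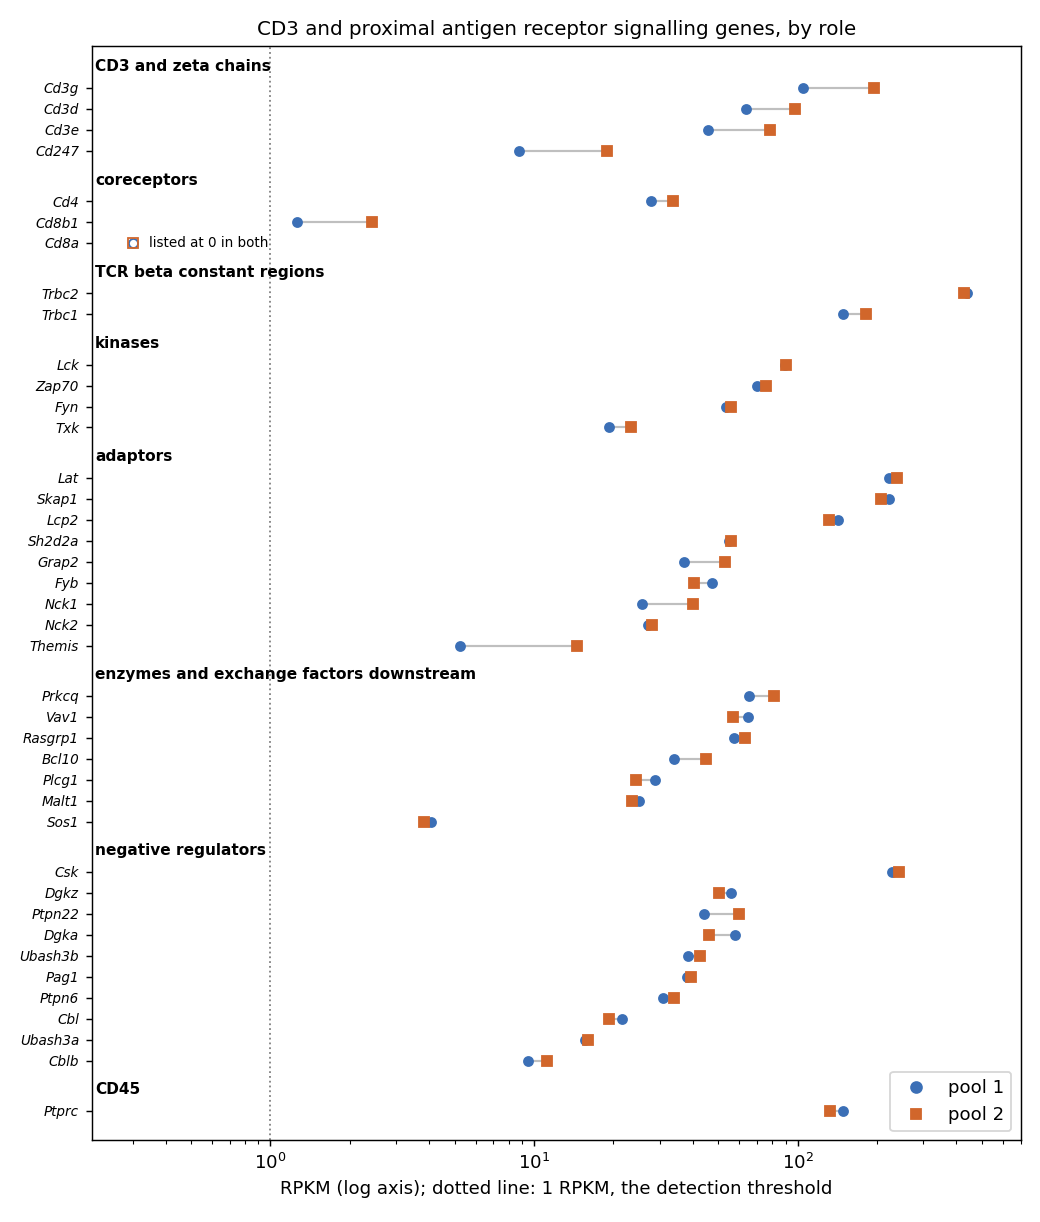
RPKM of the 40 genes on a log axis, grouped by role, with a circle for pool 1 and a square for pool 2 joined by a line. The dotted line marks 1 RPKM. The CD3 and zeta chains lie apart between the pools, while the 4 kinases nearly coincide, and Cd8a is listed at 0 in both.

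The 3 CD3 genes lie together on chromosome 9 (GRCm38, mm10): Cd3g at 44969572 to 44980431 on the minus strand, Cd3d at 44981769 to 44987052 on the plus strand and Cd3e at 44998735 to 45009663 on the minus strand. Cd3g and Cd3d are transcribed away from each other from start sites 1355 bases apart. Cd247, which encodes the zeta chain, is on chromosome 1 at 165779952 to 165871153 on the plus strand. The promoter windows of these 4 genes are shown, from RefSeq on GRCm38.p6. Each is 300 bases long and written 5′ to 3′ on the gene's own strand. They were chosen because all 4 genes were higher in pool 2. The part of promoter sequence in that difference was not tested. The windows are chr9:44980382-44980681 for Cd3g, chr9:44981536-44981835 for Cd3d, chr9:45009562-45009861 for Cd3e and chr1:165788431-165788730 for Cd247, whose window lies inside the annotated span of the gene. The start sites behind the Cd3d and Cd3e windows also lie inside the spans given above. Capitals mark the E-box CANNTG, the core bound by E proteins.
Cd3g: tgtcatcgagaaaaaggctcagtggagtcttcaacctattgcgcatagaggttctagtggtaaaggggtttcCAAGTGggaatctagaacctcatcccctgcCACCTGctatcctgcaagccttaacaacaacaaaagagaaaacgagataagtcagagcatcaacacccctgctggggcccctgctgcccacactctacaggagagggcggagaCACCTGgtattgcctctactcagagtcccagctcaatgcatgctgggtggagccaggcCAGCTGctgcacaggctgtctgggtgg
Cd3d: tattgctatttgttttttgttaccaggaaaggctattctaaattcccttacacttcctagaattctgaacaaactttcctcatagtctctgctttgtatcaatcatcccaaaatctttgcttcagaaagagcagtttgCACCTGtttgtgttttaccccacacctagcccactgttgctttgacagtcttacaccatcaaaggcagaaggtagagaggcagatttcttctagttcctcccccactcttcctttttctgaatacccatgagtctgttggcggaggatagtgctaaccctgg
Cd3e: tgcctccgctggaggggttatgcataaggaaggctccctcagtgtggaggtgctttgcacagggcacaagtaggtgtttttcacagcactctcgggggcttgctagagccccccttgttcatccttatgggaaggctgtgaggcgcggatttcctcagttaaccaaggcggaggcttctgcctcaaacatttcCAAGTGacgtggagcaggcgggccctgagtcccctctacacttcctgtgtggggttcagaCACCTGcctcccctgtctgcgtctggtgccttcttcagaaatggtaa
Cd247: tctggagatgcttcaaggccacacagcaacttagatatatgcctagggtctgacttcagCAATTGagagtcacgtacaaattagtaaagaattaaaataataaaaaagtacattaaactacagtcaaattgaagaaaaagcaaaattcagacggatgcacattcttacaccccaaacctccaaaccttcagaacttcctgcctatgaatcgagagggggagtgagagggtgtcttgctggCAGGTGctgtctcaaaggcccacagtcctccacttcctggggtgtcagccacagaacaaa
The E-box occurs 4 times in the Cd3g window, once in that of Cd3d and 2 times each in those of Cd3e and Cd247, and 72.3% of 32851 RefSeq promoter windows of the same length hold it. The ETS core GGAA occurs 2, 6, 5 and 2 times in the same order, with 96.0% of windows holding it. The RUNX core TGNGGT occurs 1, 1, 1 and 2 times (45.8% of windows) and GATA 2, 2, 0 and 1 times (57.9%). Both strands were searched, and a match describes letters and not binding. Matches of different motifs may share bases. The shares count windows with any match and give no expected number of matches.

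Cd3g, the gamma chain, reached 104 RPKM in pool 1 and 195 in pool 2. Cd3d, the delta chain, was at 63.4 and 97.4 RPKM, and Cd3e, the epsilon chain that pairs with either, at 45.8 and 78.3. Pool 2 was the higher for each of these chains. Relative to Cd3e within a pool, Cd3g was at 2.28 in pool 1 and 2.50 in pool 2, and Cd3d at 1.39 and 1.24, so the proportions among the CD3 chains were close between pools that differed in their levels.

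Cd247 was far lower, at 8.77 RPKM in pool 1 and 18.9 in pool 2, which is 0.192 and 0.242 of Cd3e. Of the 40 genes, 12 share any exonic base with another annotated gene, and Cd247 alone shares 20% or more. Of its 5329 annotated exonic bases, 60.3% are also exonic in Gm16565 on the same strand or Pou2f1 on the opposite strand, and the library kit named in the labels does not mark strand. Pou2f1 itself was at 3.68 and 4.75 RPKM. Reads from the shared bases cannot be assigned. Fcer1g encodes the Fc receptor gamma chain, a relative of zeta that also carries tyrosine motifs, and it exceeded Cd247 at 32.6 and 38.6 RPKM. Fcer1g thus stood at 0.713 of Cd3e in pool 1 and 0.493 in pool 2.

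The constant regions of the T cell receptor beta chain lie on chromosome 6, Trbc1 at 41538219 to 41539665 and Trbc2 at 41546730 to 41548181, both on the plus strand. Trbc1 reached 149 RPKM in pool 1 and 182 in pool 2. Trbc2 was at 437 and 427 RPKM, the highest of the 40 genes in either pool. Trbc2 exceeded Trbc1 by 2.94-fold in pool 1 and 2.34-fold in pool 2. The genes are near copies: over 519 aligned coding bases of GENCODE M21 they differ at 23, an identity of 95.6%, and bases 1 to 259 are identical. Most of the differences fall in a short stretch near the end, shown here because reads over it can tell the genes apart, with differing bases in capitals.
Trbc1: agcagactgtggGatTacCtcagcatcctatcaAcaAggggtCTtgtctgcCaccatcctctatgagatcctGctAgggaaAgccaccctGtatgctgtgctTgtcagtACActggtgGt
Trbc2: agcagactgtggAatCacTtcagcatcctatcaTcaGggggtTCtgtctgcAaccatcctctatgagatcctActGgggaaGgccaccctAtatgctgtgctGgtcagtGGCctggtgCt
This stretch of 120 bases holds 17 of the 23 differences. Of all windows of 50 bases, 60.2% are identical between the genes, so the split between Trbc1 and Trbc2 depends on how the authors' counting treated reads that match both.

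The rest of the beta locus was read after its values had been seen, to show which segments lie beside the constant regions. The joining segments before Trbc2 summed to 1036 RPKM in pool 1 and 974 in pool 2, and those before Trbc1 to 301 and 377. Their ratio was 3.44 and 2.58, beside 2.94 and 2.34 for Trbc2 over Trbc1. Trbj2-1 alone was at 593 and 505 RPKM, or 57.2% and 51.8% of its cluster, ahead of Trbj2-7 at 232 and 205. Joining segments are short and their values rest on few reads, at least 599 and 501 for Trbj2-1.

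Variable segments were also read. Of 24 Trbv segments in the tables, 19 were detected and Trbv11, Trbv18 and Trbv21 were listed at 0 in both pools. Trbv13-2 was the most abundant at 46.4 and 53.1 RPKM, followed by Trbv1 at 34.8 and 51.0. In all they summed to 298 RPKM in pool 1 and 392 in pool 2, which is 0.508 and 0.644 of the 2 constant regions together. Of the 19 detected, 9 were at least 1.5-fold higher in pool 2 and 0 in pool 1, beside 5.86% and 2.6% of all detected genes. Some of the 9 rest on few reads, such as at least 11 and 22 for Trbv30 and 19 and 39 for Trbv12-1. The median log2 ratio of the 19 was 0.55. Trbv14 differed most among the detected variable segments, from 6.00 RPKM in pool 1 to 20.98 in pool 2, on at least 21 and 72 reads. The tables do not tell rearranged transcripts from those of unrearranged segments.

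**Figure D2:**
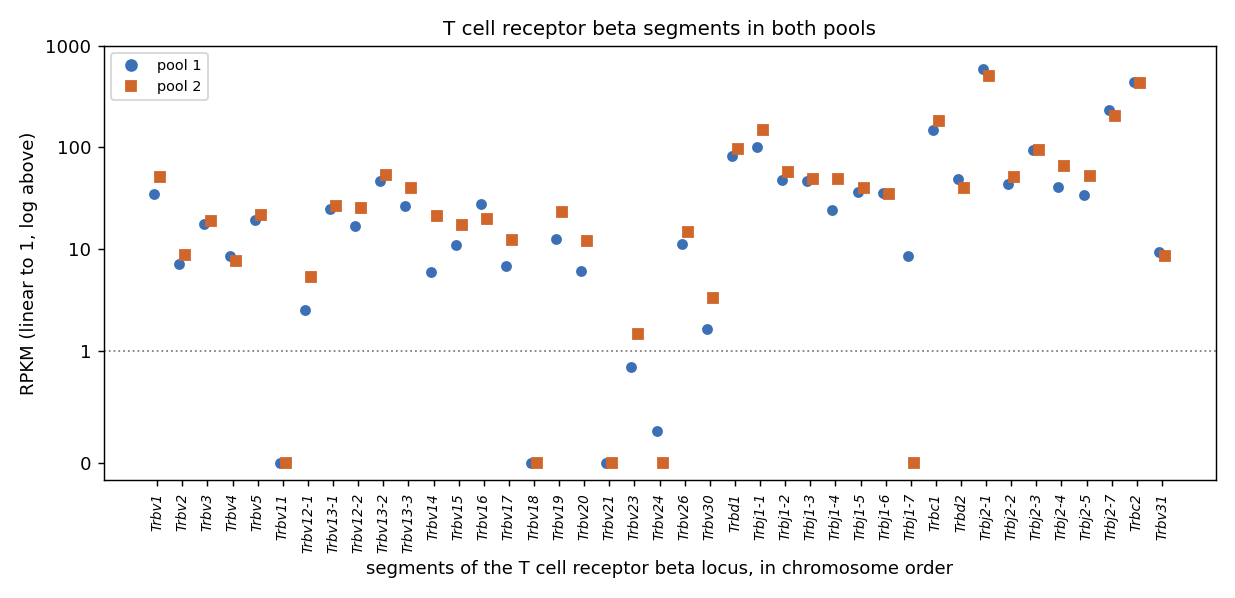
RPKM of the 41 beta locus segments in chromosome order, linear to 1 and logarithmic above, with a circle for pool 1 and a square for pool 2. Trbj2-1 and Trbc2 are the highest in both pools, and most variable segments lie between 1 and 100 RPKM.

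The coreceptors bring Lck to the receptor by binding MHC molecules. Cd4 reached 27.7 RPKM in pool 1 and 33.5 in pool 2. Cd8b1 was at 1.26 and 2.42 RPKM, from at least 9 and 17 reads. Cd8a was listed at 0 in both pools, where 3 reads over its shortest coding transcript of 2975 bases would have given 0.0499 and 0.0508 RPKM. The coreceptor pattern was therefore Cd4 well above detection, Cd8b1 just above it and Cd8a not detected at this depth.

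The kinases were uniform between the pools. Lck, the Src family kinase that starts the cascade (chromosome 4, 129548344 to 129573641, minus strand), was at 89.1 and 90.02 RPKM. Zap70 was at 70.0 and 75.9, and Fyn, a Src family kinase with functions that overlap those of Lck, at 53.6 and 56.0 RPKM. Each of these had nearly the same level in both pools. Txk, a Tec family kinase, was lower at 19.2 and 23.4 RPKM, and its ratio of 1.21 was the largest of the 4.

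Among adaptors, the scaffold Lat (chromosome 7, 126363827 to 126369705, minus strand) reached 221 RPKM in pool 1 and 239 in pool 2. Skap1, which with Fyb links the receptor to integrin adhesion, was at 222 and 207, and Lcp2, which encodes SLP-76, at 142 and 132. These 3 adaptors were the only ones of 9 above 100 RPKM in both pools. Fyb, the partner of Skap1, stood lower at 47.1 and 40.3 RPKM. Grap2, which encodes Gads and joins SLP-76 to LAT, was at 37.1 and 52.9, and Sh2d2a, an SH2 adaptor that binds Lck, at 54.9 and 56.0. The actin adaptors of the Nck pair were at similar levels in pool 1, Nck1 at 25.7 and Nck2 at 27.1 RPKM. In pool 2 Nck1 was at 39.9 and Nck2 at 28.1, so their order was reversed. Themis, a regulator of receptor signalling in thymocytes, was the lowest adaptor at 5.23 and 14.6 RPKM.

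Downstream enzymes and exchange factors lay mostly between 20 and 85 RPKM. Prkcq, protein kinase C theta, was at 65.3 and 81.3 RPKM, Vav1, an exchange factor for small GTPases, at 64.7 and 57.0, and Rasgrp1, the Ras exchange factor that binds diacylglycerol, at 57.1 and 62.9. Plcg1, the phospholipase that makes diacylglycerol, was at 28.7 and 24.3. Bcl10 at 33.8 and 44.9 and Malt1 at 25.1 and 23.5 RPKM belong to the complex that leads to NF-kappaB. Sos1, another Ras exchange factor, was much lower at 4.08 and 3.82 RPKM, a level that differed from Rasgrp1 by more than the spread of the pools.

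All 10 genes that restrain the signal were detected. Csk, the kinase that holds Src family kinases inactive (chromosome 9, 57626646 to 57653631, minus strand), reached 229 RPKM in pool 1 and 241 in pool 2. Its membrane anchor Pag1 was at 38.1 and 39.2, and Ptpn22, a phosphatase that binds Csk, at 44.2 and 59.8. Csk exceeded each of the kinases it acts on, Lck and Fyn, in both pools. Ptpn6, which encodes the phosphatase SHP-1, was at 30.7 and 34.1 RPKM. The diacylglycerol kinases were close to each other, Dgka at 57.9 and 46.0 and Dgkz at 55.8 and 50.1 RPKM. Cbl, a ubiquitin ligase, was at 21.6 and 19.2 and its relative Cblb at 9.51 and 11.2. Ubash3b, a suppressor of receptor signalling that acts as a phosphatase, was at 38.3 and 42.6 RPKM and its relative Ubash3a at 15.6 and 16.0. Ptprc encodes CD45, the phosphatase that removes the inhibitory phosphate from Lck, and it was at 148 and 133 RPKM.

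Many of these proteins have a relative, taken here as a counterpart, and some of these counterparts serve the B cell receptor or myeloid receptors. In 13 of 15 such pairs the gene taken as the T cell one was higher in both pools. Lyn was set against both Lck and Fyn, and a counterpart need not be absent from T cells. Zap70 exceeded Syk, at 3.06 and 4.75 RPKM, by 18.6-fold (mean over pools on the log2 scale with 0.1 RPKM added) and Lcp2 exceeded Blnk by 137-fold. Lat exceeded Lat2 by 13.1-fold and Skap1 exceeded Skap2 by 15.7-fold. The smaller margins were those of Lck over Lyn at 6.79-fold, Prkcq over Prkcb at 6.17-fold, Vav1 over Vav2 at 5.33-fold, Fyn over Lyn at 4.16-fold, Txk over Tec at 2.44-fold and Plcg1 over Plcg2 at 2.15-fold. Rasgrp3 was at 0.0301 and 0.0102 RPKM, under 3 reads' worth for a gene of 1 kb, so its margin under Rasgrp1 depends on the added constant. The 2 pairs in the opposite order were Grap2, which was 2.37-fold under Grap, and Cd247, which was 2.74-fold under Fcer1g.

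Pairs within the 40 genes were at most 2.62-fold apart by the same mean over pools. Trbc2 exceeded Trbc1 by 2.62-fold, Ubash3b exceeded Ubash3a by 2.55-fold and Cbl exceeded Cblb by 1.96-fold, in both pools each. Dgka and Dgkz, like Nck1 and Nck2, changed order between the pools.

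**Figure D3:**
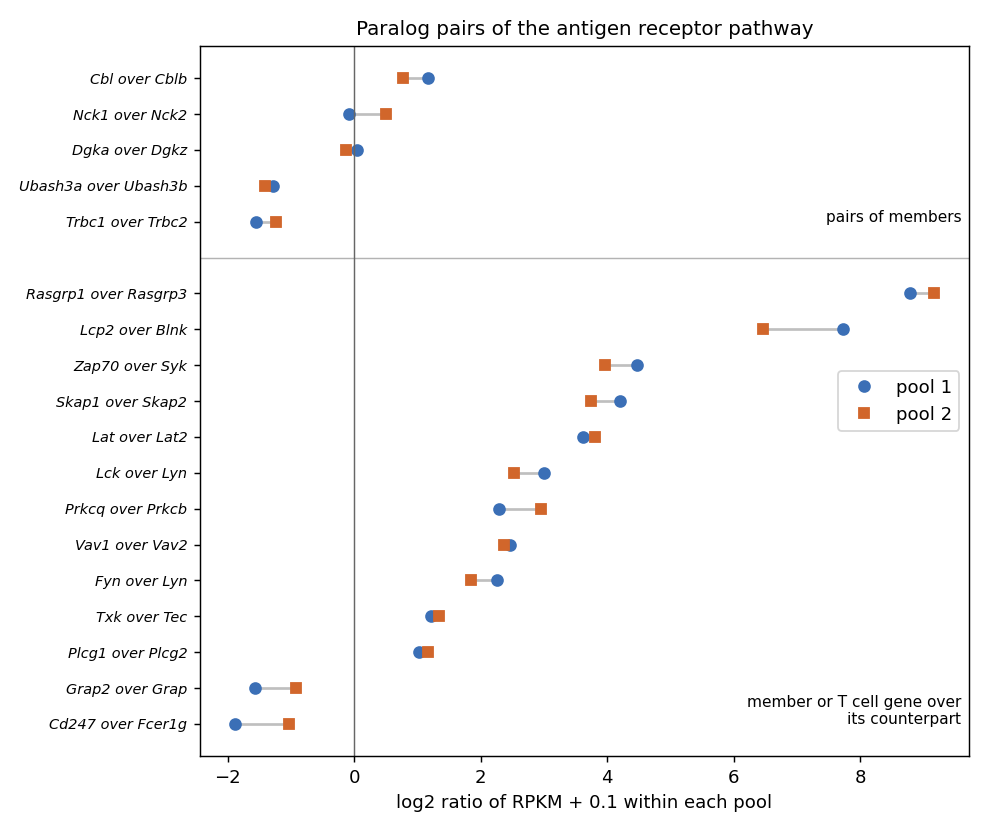
Log2 ratio of RPKM + 0.1 within each pool for 13 of the 15 pairs of a T cell gene over its counterpart and 5 pairs among the 40 genes, with a circle for pool 1 and a square for pool 2. In 11 of the 13 drawn pairs both pools lie to the right of 0, and Grap2 over Grap and Cd247 over Fcer1g lie to the left.

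Of 44 other genes of the pathway, 43 were detected, 32 of them at 10 RPKM or more and 8 at 100 or more in both pools. Over all gene rows the shares were 40.5%, 23.7% and 2.69%. Ptcra, which encodes the surrogate alpha chain of the pre-T cell receptor, was listed at 0 in both. The highest were Hcst, the adaptor DAP10 of activating receptors, at 281 and 243 RPKM, Sla, an adaptor that promotes loss of the receptor from the surface, at 168 and 197, and Dok2, an inhibitory adaptor, at 192 and 155. The lowest above 0 were Gab2 at 2.48 and 2.04 and Vav3 at 2.92 and 2.71 RPKM. Between the pools, the transmembrane adaptor Sit1, at 16.3 and 25.8 RPKM, and the kinase Syk were at least 1.5-fold higher in pool 2. Cish, an inhibitor induced by cytokines, at 203 and 115 RPKM, and Spry1, an inhibitor of Ras signalling, at 5.32 and 2.94, were so in pool 1. Of all detected genes, 5.86% were at least 1.5-fold higher in pool 2 and 2.6% in pool 1. The median log2 ratio of the 43 genes was 0.02.

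The last comparison set pool 2 against pool 1, with 1 library a side and hence no test. A gene was called apart at 1.5-fold or more on the log2(RPKM + 0.1) scale. Of the 39 detected genes, 7 were higher in pool 2, beside 5.86% of the 11013 detected genes, and 0 were higher in pool 1, beside 2.6%. The 7 were Themis, Cd247, Cd3g, Cd8b1, Cd3e, Nck1 and Cd3d. All 4 CD3 and zeta chains were among them. None of the 4 kinases, 7 downstream enzymes and exchange factors or 10 negative regulators was. At a share of 5.86% over all detected genes few would be, so their absence does not set these groups apart.

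Themis had the largest ratio at 2.76 (95% exact counting interval 2.49 to 3.13), followed by Cd247 at 2.14 (1.98 to 2.35) and Cd3g at 1.87 (1.77 to 1.97). Cd3e stood at 1.71 (1.60 to 1.83), Nck1 at 1.55 (1.43 to 1.70) and Cd3d at 1.54 (1.34 to 1.77). The intervals of Nck1 and Cd3d reach below 1.5, and Cd3d no longer passed the threshold with the median ratio of all detected genes set to 0. That of Cd8b1, at 1.86 (0.812 to 4.90), includes no difference. Just under the threshold were Grap2 at 1.43 and Ptpn22 at 1.35. At 2-fold, Cd247 and Themis were left, beside 1.6% of detected genes, and 0 genes were higher in pool 1, beside 0.962%. Among genes at 5 RPKM or more in both pools, 6 of the 37 left were higher in pool 2 (3.29% of all such genes) and 0 in pool 1 (1.37%), since Cd8b1 drops out.

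The rest of the pathway lay close to equality. By any size, 27 of the 39 were higher in pool 2, against 57.3% of all detected genes, and 23 were with the median ratio of all detected genes set to 0. The median log2 ratio was 0.11 over the 39 genes, 0.84 over the 4 CD3 and zeta chains and 0.06 over the other 35, beside 0.04 over all detected genes. The largest value toward pool 1 was that of Dgka, at 1.26-fold.

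**Figure D4:**
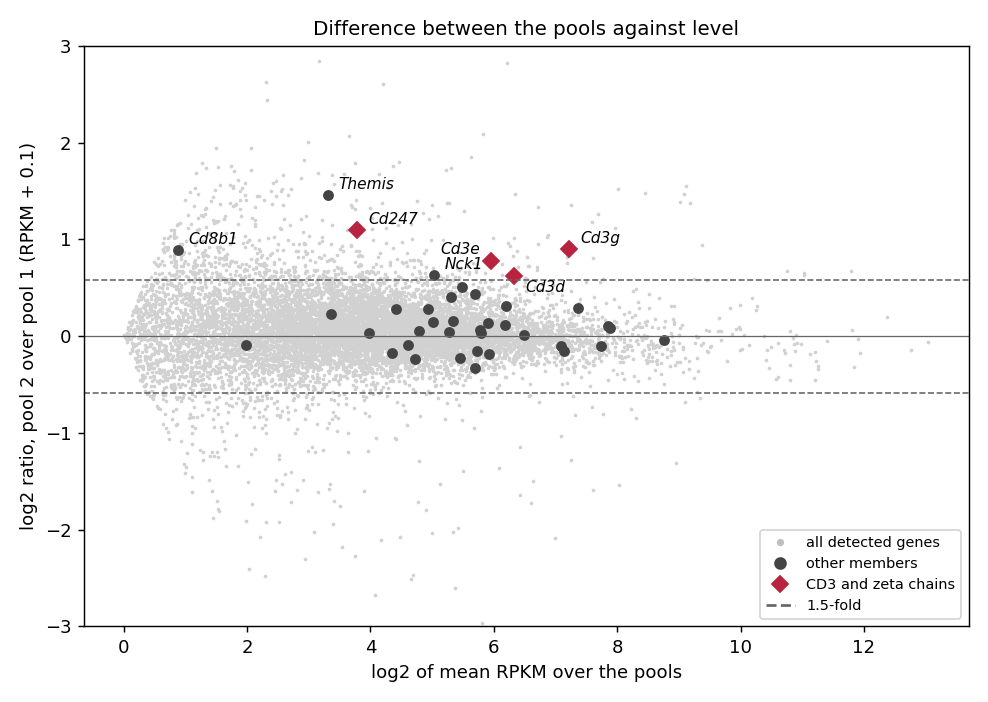
Log2 ratio of pool 2 over pool 1 against log2 of mean RPKM for the 11013 detected genes (grey), the detected genes of the pathway (black) and the CD3 and zeta chains (red), with dashed lines at 1.5-fold. The 7 named genes lie above the upper line and no gene of the pathway lies below the lower line, while 16 grey genes fall outside the drawn range.

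Markers of other cells moved between the pools as well. Of 8 genes marking gamma delta T cells all were detected, 5 at least 1.5-fold higher in pool 2 and 1 in pool 1. The shares over all detected genes were 5.86% and 2.6%, and 40.5% of all gene rows were detected. Trdc, the delta constant region, reached 18.4 RPKM in pool 1 and 130.4 in pool 2, Cd163l1 at 2.78 and 43.7, Blk at 5.12 and 31.7 and Sox13 at 1.32 and 8.62, all named after their values were seen. The gamma constant regions went both ways, Tcrg-C2 at 57.4 and 102 against Tcrg-C4 at 675 and 422 and Tcrg-C1 at 506 and 359, and the list summed to 1303 and 1148 RPKM. Of 15 alpha beta T cell markers, 13 were detected, and Cd8a and Ptcra were listed at 0. In pool 2, 5 were at least 1.5-fold higher, of which Cd3d, Cd3e, Cd3g and Cd8b1 are genes of the pathway itself and the other is Tcf7. The 15 markers summed to 1152 and 1382 RPKM. Trac, the alpha constant region, was at 158 and 166, so the ratio of Trac to Trdc was 8.60 in pool 1 and 1.28 in pool 2. The part of gamma delta or alpha beta T cells in the higher CD3 values of pool 2 was not tested.

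Other marker lists differed between the pools as well, and a gene counted as higher was so by at least 1.5-fold. Over all detected genes the shares were 5.86% in pool 2 and 2.6% in pool 1, and 40.5% of all gene rows were detected. The 7 neutrophil markers, led by S100a9, summed to 956 and 2307 RPKM with 6 at least 1.5-fold higher in pool 2, and the 6 erythroid markers, led by Hbb-bs, to 359 and 1007 with 5 higher. Of 6 eosinophil markers, led by Prg2, 4 were detected and 3 were higher in pool 2, with sums of 34.6 and 529. Of 8 NK cell markers, led by Prf1, 3 were detected and 2 were higher in pool 2, with sums of 12.1 and 17.2 RPKM and Eomes at 0.0799 and 0.0543. Of 9 B cell markers, led by Ighm, 4 were detected, 1 higher in each pool, with sums of 654 and 454 and Ms4a1 at 0.0721 and 0.882 RPKM. Of 6 mast cell or basophil markers, led by Cpa3, 4 were detected and 2 were higher in pool 1, with sums of 111 and 104. All 10 immediate early genes, led by Zfp36, were higher in pool 1, with sums of 9676 and 553. In the list for the labelled cell type, 10 of 10 ILC2 genes were detected, with sums of 2035 and 2167. Thy1 was at 558 and 510.5, Il7r at 356 and 466 and Gata3 at 292 and 250.3 RPKM. ILC2 share much of their gene expression with T cells, so detection of this list does not identify the cells. Of these 10, Il1rl1 was at least 1.5-fold higher in pool 2, at 173 and 262 RPKM, and Areg in pool 1, at 5.90 and 2.48, both named after their values were seen. The part of these differences in the pathway's values was not tested.

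**Figure D5:**
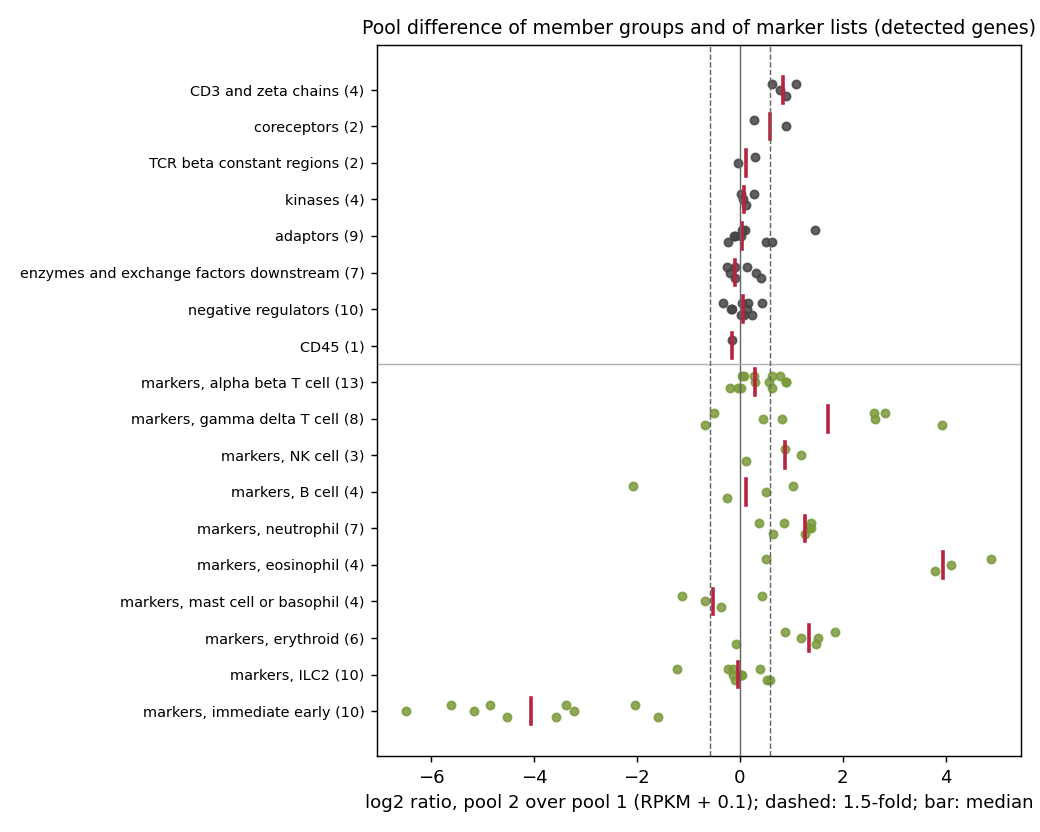
Log2 ratio of pool 2 over pool 1 for each detected gene (dots) and its median (bar) in the 8 role groups of the pathway and in 10 marker lists, with the number of detected genes in brackets and dashed lines at 1.5-fold. The CD3 and zeta chains lie to the right of the upper line, the kinases, downstream enzymes and negative regulators lie between the lines, and the immediate early genes lie far to the left.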

How the data were processed

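RNA from 2 pools of sorted ILC2 progenitors was sequenced after the Illumina TruSeq RNA preparation, per the labels' protocols. The authors deposited RPKM for 27179 Entrez gene IDs per library, of which 40 of 40 pathway genes matched by symbol. Per the submitters' processing notes, edgeR 3.8.2, edgeR 3.22.0, featureCounts and CASAVA 1.8.2 were used with the mm10 build, in roles that are not stated. For the aligner, the strand setting and the read length: not given in the sources used here. No label names a difference between the pools beyond the mice, but immediate early, neutrophil and eosinophil markers differed widely between them. The SD over pools thus holds biological and technical spread together, with any further difference between the pools.

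Levels are RPKM, and differences are log2(RPKM + 0.1), which understates those of low genes. Detection was 1 RPKM in both libraries, and a gene was called apart at 1.5-fold, with no test. Whole reads were recovered from the deposited values for 17233 of 17233 genes above 0 (100%), and for 5% of 1000 genes with library totals wrong by about 1 in 1000. They are lower bounds, since a multiple of a gene's length gives whole reads too, and sum to 90.0% and 89.8% of the totals. They gave the exact counting intervals of ratios (95%), which can thus be too wide. Coordinates and promoters are from RefSeq (GRCm38.p6, 32 of 40 genes with a promoter window of 250 bases before to 50 after the start), and exon overlaps and constant region sequences from GENCODE M21. Python 3.11.15, pandas 2.3.3, scipy 1.17.1 and Biopython 1.88 were used.

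All 40 genes are named, as are both genes of each pair except 2 pairs that are not reported here, the 3 highest, the 3 lowest and those 1.5-fold apart among the other pathway genes, and the highest marker of each list and those at 0. Other genes were named after their values were seen. The 40 genes, lists, pairs and alternatives were chosen with earlier results of these data known. Alternatives were other detection limits, pseudocounts, scalings and fold thresholds and leaving out either library.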

Additional observations from a re-analysis of the deposited data

How the results depend on the processing

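The count of detected genes stayed at 39 of 40 at a limit of 0.5 RPKM, in either library alone and after rescaling, and was 37 at 5 RPKM. The median log2 level of the 40 genes was 5.58, ranged from 5.50 to 5.59 with 1 library left out, and was 6.64 after rescaling each library to the same sum (TPM), which raises all genes. The number of genes at least 1.5-fold higher in pool 2 was 7 with no filter (7.84% of all genes), with a pseudocount of 1 RPKM (3.98%) and after rescaling (8.06%), 6 at 5 RPKM (3.29%), which removes Cd8b1, 6 with the median ratio of all detected genes set to 0 (4.94%), which removes Cd3d, and 2 at a threshold of 2-fold (1.6%), by construction. In the main setting it was 7, beside 5.86% of all detected genes. The number higher in pool 1 was 0 in each of these settings. The median log2 ratio ranged from 0.07 to 0.13. The T cell gene was higher in 13 of 15 pairs with every pseudocount and in either library. Of 200 alternative values for the level of single genes, 47 moved by more than the spread of the pools, and of 120 for their ratio, 3 left the counting interval. The ratios of Lck, Sh2d2a, Pag1 and Ubash3a, none of them called apart, changed sign with the median set to 0, to -0.03, -0.02, -0.0033 and -0.01 (log2). Pairs without division by gene length were not run, because reads were recovered as lower bounds. No paired analysis was possible because the series holds 1 group. With 1 library a side, no difference between the pools has a replicate check, and under 0.15 RPKM a gene of 1 kb has fewer than 3 reads.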

Other observations

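The alpha and delta segments of the T cell receptor were read in the same way as those of the beta chain. Of 114 Trav segments, 15 were detected and 33 were listed at 0 in both pools. Together the 114 summed to 64.1 RPKM in pool 1 and 81.0 in pool 2, on at least 398 and 474 reads. Of the detected segments, 4 were at least 1.5-fold higher in pool 2 and 1 in pool 1, beside 5.86% and 2.6% of all detected genes. Of 51 Traj segments, 27 were detected, with sums of 184 and 202 RPKM on at least 188 and 195 reads, and 5 were at least 1.5-fold higher in each pool. Detection and differences of single Traj segments thus rest on very few reads. The Trac constant region that they join was at 158 and 166 RPKM. On the delta side, 5 Trdv segments summed to 52.3 RPKM in pool 1 and 145 in pool 2, on at least 365 and 997 reads. Of the 5, 3 were detected, and those 3 were at least 1.5-fold higher in pool 2. The segments were chosen after their values were seen, and the tables do not tell rearranged transcripts from unrearranged ones.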
